A study of Mus musculus with 9 samples.

Results

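The oncofetal axis described here is a set of 10 mouse genes chosen by symbol: Lin28a, Lin28b, Hmga1, Hmga2, Igf2bp1, Igf2bp2, Igf2bp3, Igf2, H19 and Dlk1. Of these 10, 8 were found among the 24012 genes of the expression table, and Lin28a and H19 were not analysed here. The cells were pancreatic ductal adenocarcinoma (PDAC) cells that had reached the lungs of mice after injection into the tail vein, and they carried GFP and a Gstt1-mCherry reporter. The 3 groups of 3 libraries were cells labelled DTC, taken at 5 days by their GFP signal, mCherryHigh cells sorted at 6 weeks for a high reporter signal, and mCherryLow cells sorted at 6 weeks for a low one. The labelled genotype of every library was SIRT6F/F/p48-Cre/p53F/+KrasL/+, that is floxed Sirt6, floxed p53 on one allele and the KrasL/+ allele with p48-Cre, a recombinase driven from a pancreatic promoter. No group with intact Sirt6 entered, so no comparison here shows what Sirt6 deletion does to these genes. Whether the libraries came from separate mice is not stated on the labels, so p-values measure the spread between these libraries, which may be technical.

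Lin28a and Lin28b are RNA-binding proteins that stop the let-7 microRNAs from being processed, and let-7 in turn pairs with the 3′ untranslated region (UTR) of the Lin28 mRNAs, so each side of the loop holds the other down. Hmga2, a chromatin protein that bends AT-rich DNA, and the IGF2 mRNA-binding proteins are classic let-7 targets, and most of the axis is high in the embryo and low in adult tissue. In pancreatic cancer, loss of the deacetylase SIRT6 has been linked to high LIN28B and to release of let-7 targets.

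The mature let-7 sequences show why one search covers the family, since all 9 that RefSeq lists for mouse (GRCm38.p6, from 11 loci) carry the same seed, bases 2 to 8, here in capitals:
mmu-let-7a-5p: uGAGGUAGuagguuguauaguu
mmu-let-7g-5p: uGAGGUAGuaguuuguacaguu
mmu-miR-98-5p: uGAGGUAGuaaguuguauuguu

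The complement of that seed, CTACCTC, was sought on the transcript strand of the 3′ UTR of each gene's longest complete coding transcript (GENCODE M21, GRCm38), and the longer form CTACCTCA contains it. Hmga2, Lin28b and Igf2bp1 each held 4 matches. The Hmga2 and Lin28b windows and a site each of Igf2bp1 and Igf2bp3 are shown because these are the let-7 side of the genes that differ between groups below, with the match in capitals:
Hmga2 site 1: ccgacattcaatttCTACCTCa
Hmga2 site 2: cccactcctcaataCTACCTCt
Hmga2 site 3: tgatttgcaaggaaCTACCTCc
Hmga2 site 4: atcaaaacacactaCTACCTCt
Lin28b site 1: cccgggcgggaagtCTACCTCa
Lin28b site 2: atacttgttagtaaCTACCTCt
Lin28b site 3: tttacagcacatggCTACCTCc
Lin28b site 4: aatgatggcaccgaCTACCTCt
Igf2bp1 site 2: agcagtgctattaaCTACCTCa
Igf2bp3 site 1: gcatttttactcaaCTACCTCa

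In GRCm38, Hmga2 site 1 lies on the minus strand at chr10:120364224-120364245, 58 bases into its UTR, and Lin28b site 1 lies on the minus strand at chr10:45381022-45381043, 36 bases into its UTR. Igf2bp1 site 2 is at chr11:95959357-95959378 and Igf2bp3 site 1 at chr6:49086787-49086808, both on the minus strand. Hmga1, Igf2bp2 and Igf2bp3 held 1 match each, Lin28a held 2, and no match was in the UTR of Igf2 or Dlk1. Of the 20893 genes with a 3′ UTR, 8.82% held a match and 1.07% held 2 or more. Among genes with a UTR within 20% of the length, 0.0914% held as many matches as Hmga2, 0.16% as many as Lin28b and 0.178% as many as Igf2bp1. A match is a description of the letters, not a shown binding site, and let-7 levels were not analysed here.

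**Figure D1:**
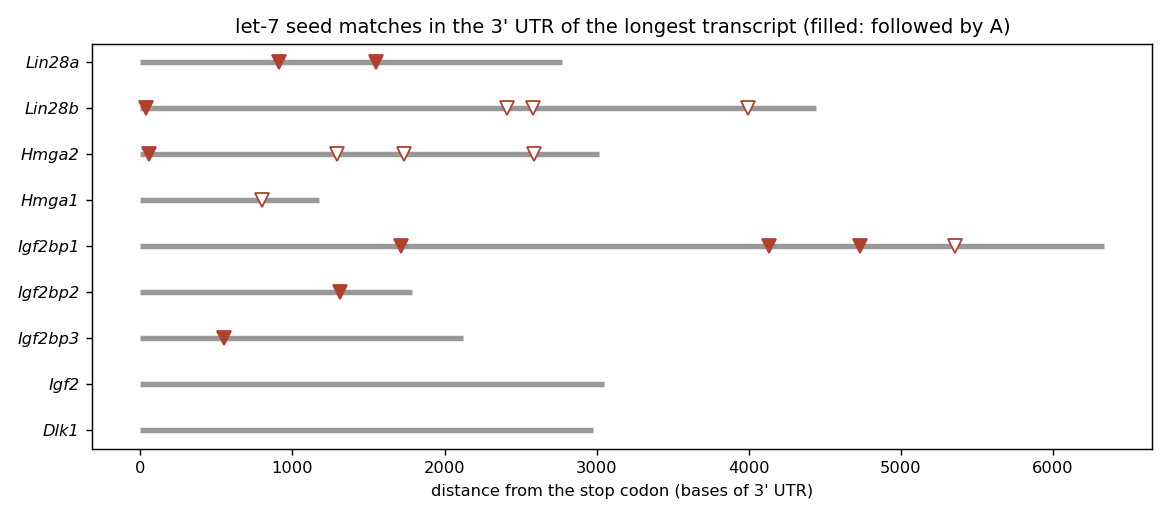
Position of each let-7 seed match (triangle) along the 3′ UTR (grey bar, bases after the stop codon) of the 9 genes with a coding transcript, filled where the match is followed by A. Hmga2, Lin28b and Igf2bp1 carry 4 matches each, and Igf2 and Dlk1 carry 0.

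Expression was deposited as CPM (reads of a gene scaled to a common library total), and whole reads could be recovered from it, giving 643748 to 11861241 reads per library. The DTC libraries held 1313868, 2052623 and 923988 reads, mCherryHigh 1 held 643748, mCherryLow 1 held 2051266, and the other 4 held 9779098 or more. Where no read was counted, a level of up to 3 reads remains possible, equal to 4.66 CPM for mCherryHigh 1 and 0.253 CPM for mCherryLow 6, and this floor and the Poisson intervals below cover counting error only. Codes in the labels, of unstated meaning, place the DTC libraries in one series that holds no other group, so the DTC state, the time, the sort gate and that series cannot be told apart.

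The labelled cell type was checked against 10 markers of PDAC and ductal epithelium. Their summed level was 5373, 6082 and 464 CPM in DTC 1, 2 and 3, against 2197 to 6075 CPM in mCherryHigh and 1822 to 2615 CPM in mCherryLow. DTC 3 was therefore lower in these markers than every other library, and each DTC result below is also given without it where that changes the call. The ductal marker Cldn4 was at 0 in DTC 2 and DTC 3. Macrophage and monocyte markers summed to 3904, 3164 and 7677 CPM in DTC 1, 2 and 3. Their sums were 304 to 794 CPM in mCherryHigh and 466 to 684 CPM in mCherryLow. All 12 were detected in every DTC library and in mCherryLow 1. The complement gene C1qb was at 0 in 3 mCherryHigh and 2 mCherryLow libraries. Endothelial markers summed to 243 to 515 CPM in DTC, 51.1 to 69.9 CPM in mCherryHigh and 19.5 to 32.2 CPM in mCherryLow, and alveolar and airway markers to 134 to 487, 14 to 42.2 and 9.58 to 21.1 CPM in the same groups. The fibroblast sum was 121 to 326 CPM in DTC, 137 to 177 CPM in mCherryHigh and 75.2 to 134 CPM in mCherryLow. T and NK cell markers gave 48.7 to 201, 3.07 to 9.32 and 1.60 to 5.36 CPM, and B cell markers 31.2 to 74.7, 9.10 to 9.32 and 4.38 to 11.5 CPM, again for DTC, mCherryHigh and mCherryLow. In such bulk samples fewer cells of a type and less RNA per cell cannot be told apart.

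Reads also lay on genes that pancreatic tumour cells are not known to use. The mean over 480 olfactory and vomeronasal receptor genes, called chemosensory below, was 3.66, 2.06 and 5.22 CPM per kb of transcript in DTC 1, 2 and 3. It was 1.68 CPM per kb in mCherryHigh 1, and 0.0894 and 0.222 in mCherryHigh 5 and 6. In mCherryLow 1, 5 and 6 it was 0.262, 0.158 and 0.0756 CPM per kb. Per gene the mean was 8.24, 4.63 and 12.1 CPM in DTC 1, 2 and 3 and 0.189 to 3.12 CPM in the other libraries. The marker sums above, with 6 T and NK cell and 4 B cell markers found, were not corrected for this level. Its part in them was not tested. The 480 are receptor genes in the expression table, where all 24012 genes had a read in at least 1 DTC or mCherryHigh library. Receptor genes with no such reads are therefore missing from the mean, which is conditioned on detection. In each DTC library it also lay above most of the 480 genes, so subtracting it removes more than the level of a typical one. The mean, called the chemosensory level, serves below as a yardstick for low values, chosen after the data were seen. Every result was also computed with it subtracted from each gene in proportion to transcript length.

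The genotype genes had reads in every library. Sirt6 averaged 7.43 ± 3.49 CPM in DTC, 15.5 ± 8.74 CPM in mCherryHigh and 10.8 ± 1.24 CPM in mCherryLow (SD, n = 3 each). These values count the whole gene, so they do not check a deletion of some exons, and they are given for the label only.

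Hmga2 showed the clearest pattern of the axis. Its level was 179, 225 and 68.2 CPM in DTC 1, 2 and 3, against 48.2, 13.3 and 45.2 CPM in mCherryHigh 1, 5 and 6 and 15.1, 20.1 and 13.5 CPM in mCherryLow 1, 5 and 6. Every DTC library lay above every library of the other groups, and mCherryHigh 5 lay below all 3 mCherryLow libraries while mCherryHigh 1 and 6 lay above them. The Poisson interval of mCherryHigh 5 (11.1 to 15.8 CPM) overlapped those of mCherryLow 1 (10.3 to 21.5) and mCherryLow 6 (11.5 to 15.7). In DTC relative to mCherryLow, Hmga2 rose by 3.05 on the log2(CPM + 1) scale (SE 0.49, 95% interval 1.99 to 4.11, limma adjusted p = 8.10e-04), an 8.29-fold difference. That call held in all 12 other settings and with each of the 6 libraries left out, with values from 2.71 to 3.57. With the chemosensory level subtracted it was 2.89 (limma adjusted p = 0.0144), and without DTC 3 it was 3.57 (limma adjusted p = 0.00312).

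In DTC relative to mCherryHigh, Hmga2 rose by 2.15 (SE 0.58, interval 0.86 to 3.43, limma adjusted p = 0.0190), a 4.43-fold difference. This call was lost without mCherryHigh 5 (1.57), DTC 1 (1.97) or DTC 2 (1.81), and with the chemosensory level subtracted (2.01, limma adjusted p = 0.0805). In mCherryHigh relative to mCherryLow the difference was 0.91 (SE 0.56, interval -0.39 to 2.20, limma adjusted p = 0.654), which did not pass.

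Lin28b, the let-7 blocker itself, was low throughout. It was at 25.9, 10.7 and 43.3 CPM in DTC 1, 2 and 3, from 34, 22 and 40 reads. It was at 4.66, 10.2 and 10.1 CPM in mCherryHigh 1, 5 and 6, from 3, 100 and 99 reads, and at 5.85, 1.78 and 3.71 CPM in mCherryLow 1, 5 and 6. The DTC values were above all others, but by little in DTC 2, whose interval (6.72 to 16.2 CPM) covered the values of mCherryHigh 5 and 6.

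In DTC relative to mCherryLow, Lin28b rose by 2.43 (SE 0.65, interval 1.00 to 3.85, limma adjusted p = 0.0108), a 5.38-fold difference, and by 1.99 without DTC 3 (limma adjusted p = 0.0455). Per kb of transcript, Lin28b stood at 4.79, 1.98 and 8.01 CPM in DTC 1, 2 and 3, which is 1.31, 0.964 and 1.53 times the chemosensory level of the same library. In mCherryHigh 1, 5 and 6 it was 0.514, 21.1 and 8.45 times that level, and in the mCherryLow libraries 2.09 to 9.08 times. That level is a mean, and per kb Lin28b lay above 75.6%, 67.1% and 78.5% of the chemosensory genes in DTC 1, 2 and 3. The shares were 59.0%, 99.6% and 97.3% in mCherryHigh 1, 5 and 6. In mCherryLow 1, 5 and 6 they were 94.6%, 87.3% and 96.5%. With the chemosensory level subtracted, Lin28b came to 6.10, 0 and 15.1 CPM in DTC, against 0, 9.72 and 8.93 CPM in mCherryHigh and 4.44, 0.931 and 3.30 CPM in mCherryLow. The DTC values then spanned the others, and the difference from mCherryLow was 0.45 (limma adjusted p = 0.755). It was also not called with quantile normalization (1.26, adjusted p = 0.226 by limma) or after thinning to the shallowest depth (1.62, adjusted p = 0.139 by limma).

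In DTC relative to mCherryHigh the Lin28b difference was 1.44 (SE 0.65, interval 0.01 to 2.86, limma adjusted p = 0.114), which did not pass. In mCherryHigh relative to mCherryLow it was 0.99 (SE 0.58, interval -0.35 to 2.33, limma adjusted p = 0.634), with mCherryHigh above mCherryLow in 8 of 9 library pairs. Within the label code series the order of the values differed, in part within counting error. mCherryHigh 1 was at 4.66 CPM, below mCherryLow 1 at 5.85 CPM, but their Poisson intervals overlapped (0.961 to 13.6 and 3.02 to 10.2 CPM). mCherryHigh 5 was at 10.2 CPM, above mCherryLow 5 and 6 at 1.78 and 3.71 CPM. For Hmga2, mCherryHigh 1 at 48.2 CPM was above mCherryLow 1 at 15.1 CPM, and mCherryHigh 5 at 13.3 CPM was below mCherryLow 5 at 20.1 CPM. The Hmga2 intervals of mCherryHigh 5 (11.1 to 15.8 CPM) and mCherryLow 6 (13.5 CPM, 11.5 to 15.7) overlapped.

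**Figure D2:**
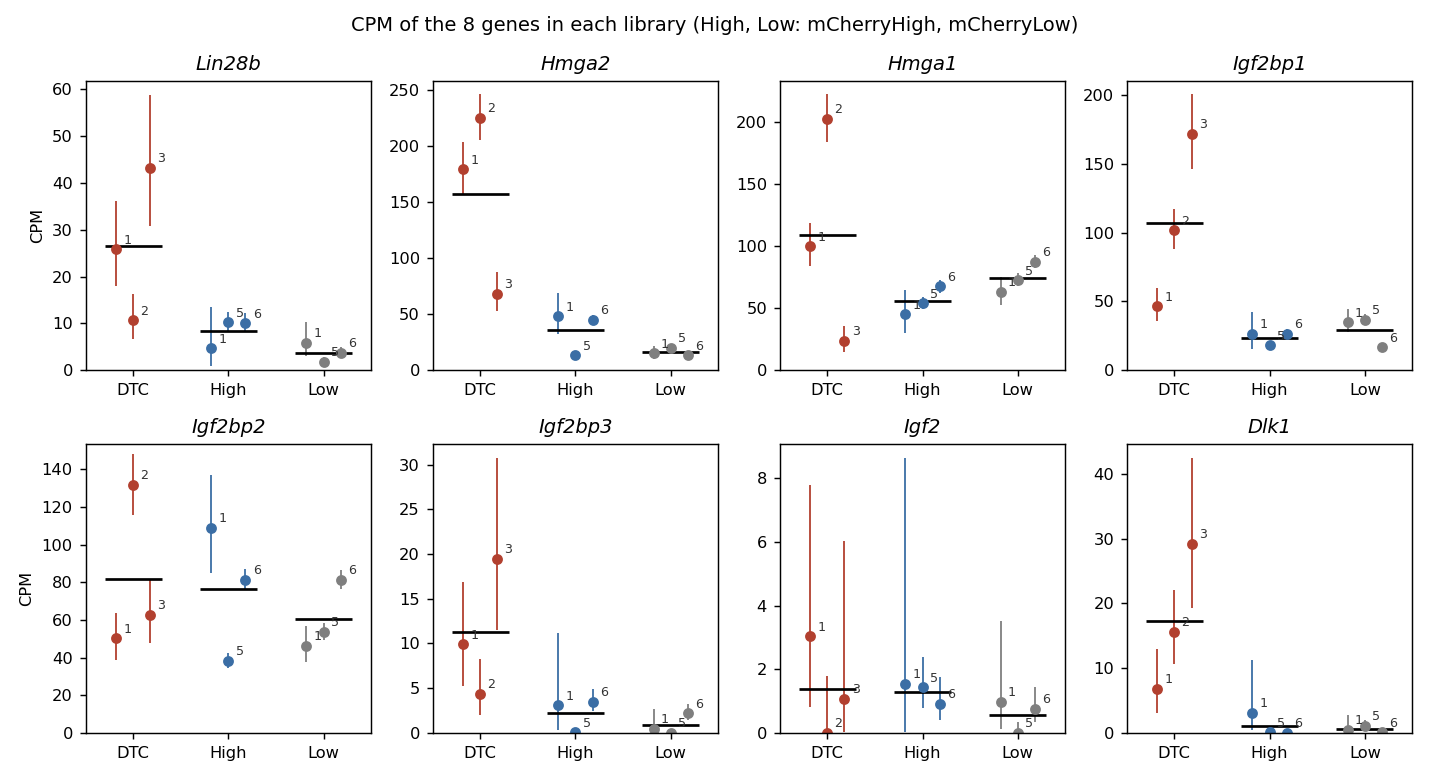
CPM of each of the 8 genes in the DTC, mCherryHigh and mCherryLow libraries (points, numbered by replicate), with 95% exact Poisson intervals as error bars and the group mean as a black line. Hmga2 is at 68.2 to 225 CPM in DTC, above all other libraries, while Hmga1 and Igf2bp2 overlap between groups.

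Hmga1, the relative of Hmga2 that many adult and tumour cells use, did not follow it. Its level was 100, 203 and 23.8 CPM in DTC 1, 2 and 3, against 45.0, 54.0 and 67.7 CPM in mCherryHigh and 63.4, 72.8 and 87.6 CPM in mCherryLow. The DTC libraries lay both above and below the other groups. Its difference was 0.10 for DTC minus mCherryLow (interval -1.27 to 1.46, limma adjusted p = 0.917), 0.52 for DTC minus mCherryHigh (interval -0.90 to 1.94, limma adjusted p = 0.568) and -0.42 for mCherryHigh minus mCherryLow (interval -1.10 to 0.25, limma adjusted p = 0.689). The first changed sign with median-of-ratios scaling (-0.25) and without DTC 2 (-0.58), and its interval does not exclude a change of 2-fold either way.

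The 3 IGF2 mRNA-binding proteins, which hold target mRNAs in the cytoplasm, did not move as a family. Igf2bp1 was at 46.4, 102 and 172 CPM in DTC 1, 2 and 3, against 26.4, 18.1 and 26.7 CPM in mCherryHigh and 35.1, 36.8 and 16.9 CPM in mCherryLow. All DTC values were above all others. It rose by 1.70 in DTC relative to mCherryLow (SE 0.52, interval 0.57 to 2.84, limma adjusted p = 0.0205) and by 1.96 relative to mCherryHigh (SE 0.51, interval 0.84 to 3.07, limma adjusted p = 0.0157). Without DTC 3 these were 1.27 (limma adjusted p = 0.0833) and 1.52 (limma adjusted p = 0.0607), and with the chemosensory level subtracted 1.04 (limma adjusted p = 0.331) and 1.63 (limma adjusted p = 0.186), so each call was lost. Both were also lost without DTC 2 (1.64 and 1.89), and the first without mCherryLow 6 (1.36). The first was also not called with quantile normalization (1.72, limma adjusted p = 0.0507) or after thinning (1.91, limma adjusted p = 0.0591). The same held for edgeR's quasi-likelihood test (1.32, adjusted p = 0.0584). Between mCherryHigh and mCherryLow the Igf2bp1 difference was -0.25 (interval -1.27 to 0.77, limma adjusted p = 0.914).

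Igf2bp2, the member of that family used most widely in adult tissue, was at 50.2, 132 and 62.8 CPM in DTC, 109, 38.3 and 81.4 CPM in mCherryHigh and 46.3, 53.8 and 81.5 CPM in mCherryLow. The groups overlapped in each comparison. Its differences were 0.34 for DTC minus mCherryLow (interval -0.63 to 1.31), 0.10 for DTC minus mCherryHigh (interval -1.0 to 1.20) and 0.24 for mCherryHigh minus mCherryLow (interval -0.78 to 1.26), with limma adjusted p of 0.562, 0.905 and 0.918. Each of them changed sign under some setting.

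Igf2bp3 was at 9.89, 4.38 and 19.5 CPM in DTC, from 13, 9 and 18 reads, against 3.11, 0.102 and 3.48 CPM in mCherryHigh and 0.488, 0 and 2.19 CPM in mCherryLow. All DTC values were above all others. It rose by 2.66 in DTC relative to mCherryLow (SE 0.67, interval 1.19 to 4.13, limma adjusted p = 0.00795), and the difference from mCherryHigh was 1.96 (interval 0.22 to 3.71, limma adjusted p = 0.0825). The first was not called with quantile normalization (1.18, limma adjusted p = 0.222) or by edgeR's quasi-likelihood test (2.96, adjusted p = 0.0755). In all 3 DTC libraries Igf2bp3 was under the chemosensory level per kb, at 0.622, 0.490 and 0.859 times it. That level is a mean, and per kb Igf2bp3 lay above 56.7%, 49.4% and 64.6% of the chemosensory genes in these libraries. Subtraction left 0 CPM in each, so the gene no longer reached the 1 CPM needed for a test.

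Igf2, the growth factor ligand, was low in every library. It had 4, 0 and 1 reads in DTC 1, 2 and 3, 1, 14 and 9 reads in mCherryHigh 1, 5 and 6, and 2, 0 and 9 reads in mCherryLow 1, 5 and 6. Its highest value was 3.04 CPM, in DTC 1, and a group difference was not detectable at this depth. The gene missed the filter in both comparisons with mCherryLow and differed by -0.17 between DTC and mCherryHigh (interval -1.57 to 1.24, limma adjusted p = 0.867).

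Dlk1, an imprinted membrane protein of fetal and progenitor cells, was at 6.85, 15.6 and 29.2 CPM in DTC, from 9, 32 and 27 reads, against 3.11, 0.102 and 0 CPM in mCherryHigh and 0.488, 1.13 and 0.0843 CPM in mCherryLow. All DTC values were above all others, while mCherryHigh and mCherryLow overlapped. It rose by 3.39 in DTC relative to mCherryLow (SE 0.64, interval 1.99 to 4.79, limma adjusted p = 0.00180) and by 3.25 relative to mCherryHigh (SE 0.80, interval 1.5 to 5.01, limma adjusted p = 0.0122). The second call was lost without DTC 3 (2.79, limma adjusted p = 0.0531), and both were lost with quantile normalization (1.86 and 2.02). In DTC 1, 2 and 3 Dlk1 stood at 0.402, 1.63 and 1.20 times the chemosensory level per kb, and subtraction left 0, 6.01 and 4.92 CPM. Per kb it lay above 46.5%, 81.0% and 71.9% of the chemosensory genes in these libraries. Meg3, the maternally expressed non-coding RNA of the same imprinted domain, was at 25.9, 33.1 and 72.5 CPM in DTC, 4.66, 0.918 and 1.94 CPM in mCherryHigh and 0.975, 1.31 and 0 CPM in mCherryLow. It rose by 4.62 in DTC relative to mCherryLow (SE 0.63, limma adjusted p = 4.93e-04), and per kb it too was near the chemosensory level, at 0.486 to 1.11 times it in DTC. Per kb Meg3 lay above 50.8%, 71.9% and 67.5% of the chemosensory genes in DTC 1, 2 and 3.

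Of the 7 members tested between DTC and mCherryLow, 5 were called higher, where 34.2% of 18701 genes were called higher and 8.87% lower. The share depended on level. It was 66.9% for genes with a mCherryLow mean under 5 CPM, which holds Lin28b, Igf2bp3 and Dlk1, 19.0% for genes at 5 to 50 CPM, which holds Hmga2 and Igf2bp1, and 2.34% for genes over 50 CPM, which holds Hmga1 and Igf2bp2. In 5 of the 7 all DTC libraries were above all mCherryLow libraries, where 39.0% of genes were. Within mCherryLow, Igf2bp3 reached 1 CPM only in mCherryLow 6 (2.19 CPM) and Dlk1 only in mCherryLow 5 (1.13 CPM). Both thus passed the filter only through the DTC libraries, so their calls are not independent of it. Other low genes can enter the same way, so the 66.9% share depends on the filter too. With no filter 5 of 8 members were called higher, beside 6298 of 23481 genes. The median of all genes was 0.59, above the values of Hmga1 and Igf2bp2.

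Between DTC and mCherryHigh, 3 of 8 members were called higher, against 23.0% of 19700 genes called higher and 7.19% lower, with 5 of the 8 not overlapping and higher, against 31.4% of genes. The share of genes called higher there was 43.3% at a mCherryHigh mean under 5 CPM, 15.0% at 5 to 50 CPM and 1.40% over 50 CPM, and the median of all genes was 0.55. This comparison uses the same DTC libraries as the one with mCherryLow. Dlk1 again passed the filter only through them, since in mCherryHigh it reached 1 CPM in mCherryHigh 1 alone (3.11 CPM). With the chemosensory level subtracted, 5 members were still tested in each DTC comparison. Of these 5, 1 was called higher against mCherryLow, Hmga2, beside 13.6% of 13907 genes. Against mCherryHigh 0 of the 5 were called, beside 10.5% of 13881 genes called higher. With quantile normalization 1 member, Hmga2, was called higher against mCherryLow, beside 12.1% of genes, and 2 members, Hmga2 and Igf2bp1, against mCherryHigh, beside 8.20% of genes.

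Between mCherryHigh and mCherryLow, 0 of the 6 members tested were called by limma, beside 0% of 15437 genes. The edgeR test called 0 members and 0 genes, and DESeq2 called 0 members and 132 genes, or 0.873%. At an unadjusted p under 0.05 limma had 0 members and 9.38% of genes.

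**Figure D3:**
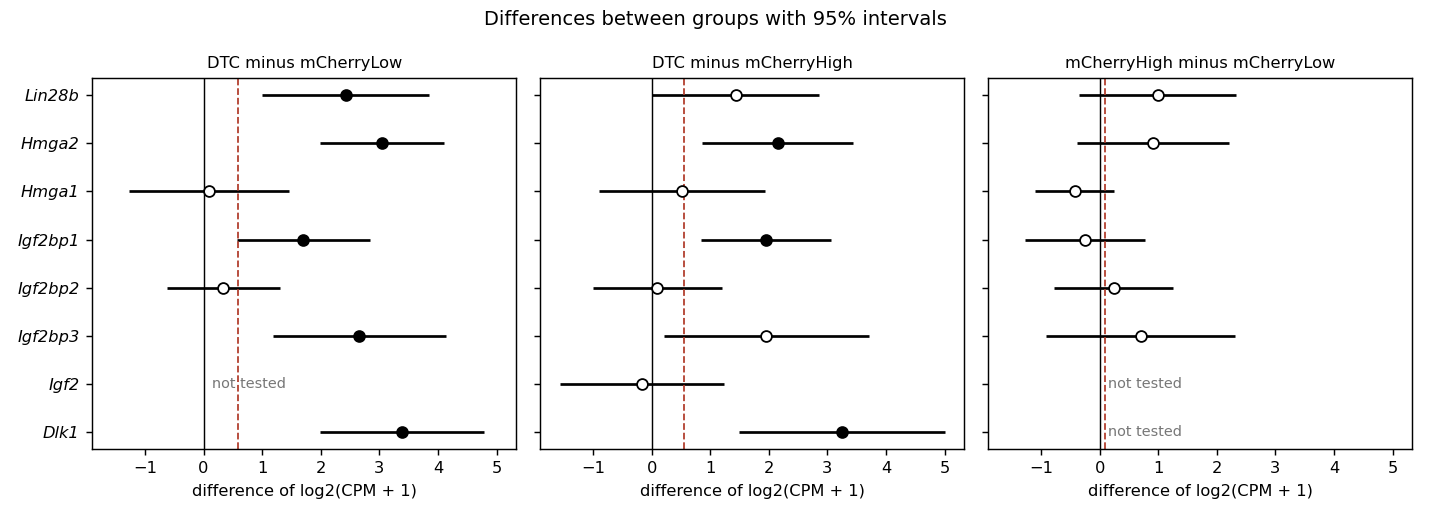
Differences of log2(CPM + 1) between groups with 95% intervals for the 8 genes in 3 comparisons, filled where the limma adjusted p is under 0.05. The red dashed line is the median of all genes tested, at 0.59, 0.55 and 0.09 from left to right; Hmga2, Igf2bp1 and Dlk1 are filled in both DTC comparisons and no gene is in the third.

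The order of the members per kb of transcript was nearly the same in the sorted groups. In mCherryLow the means were 37.3 ± 6.10 CPM per kb for Hmga1, 15.5 ± 4.74 for Igf2bp2, 4.26 ± 0.901 for Hmga2, 3.53 ± 1.32 for Igf2bp1 and 0.699 ± 0.375 for Lin28b (SD, n = 3 each). Igf2bp3, Igf2 and Dlk1 followed, at 0.205, 0.122 and 0.122 CPM per kb. Hmga2 and Igf2bp1 were not separated by their library ranges, nor were Lin28b and Igf2bp3, while Hmga1, Igf2bp2 and Hmga2 were separated from each other. In mCherryHigh, Hmga1 (27.8 ± 5.69) and Igf2bp2 (19.5 ± 9.12) again led, and their ranges overlapped there. In DTC, Hmga2 was second at 41.2 ± 21.1 CPM per kb, between Hmga1 at 54.4 ± 44.7 and Igf2bp2 at 20.9 ± 11.2, and the ranges of these neighbours overlapped.

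**Figure D4:**
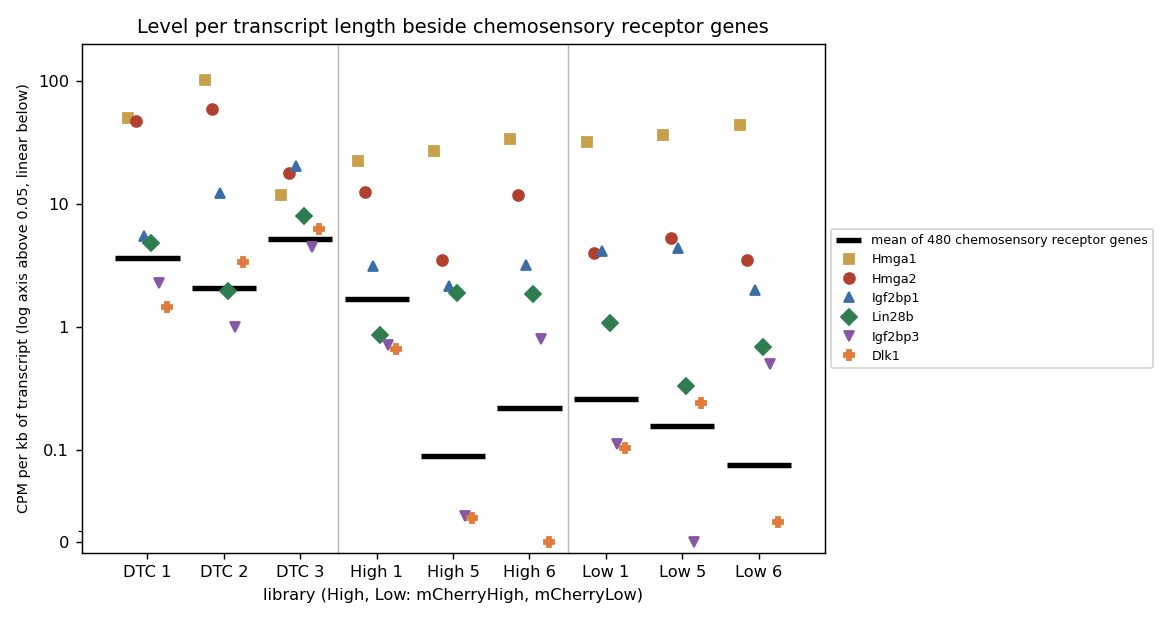
CPM per kb of transcript of 6 genes in each library (symbols; log axis above 0.05 and linear below), with the mean over 480 chemosensory receptor genes of that library as a black bar. In DTC, Lin28b, Igf2bp3 and Dlk1 lie around the bar (0.402 to 1.63 times it), while Hmga2 lies at 3.43 to 28.6 times it.

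The members split within the DTC group. Hmga1 and Hmga2 were lowest in DTC 3, at 23.8 and 68.2 CPM, and highest in DTC 2. Lin28b, Igf2bp1, Igf2bp3 and Dlk1 were highest in DTC 3. DTC 3 had the lowest sum of ductal markers (464 CPM) and the highest sum of macrophage markers (7677 CPM), and its chemosensory level was the highest of all libraries (5.22 CPM per kb). The part of these quantities in the members' levels was not tested, beyond the subtraction above.

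**Figure D5:**
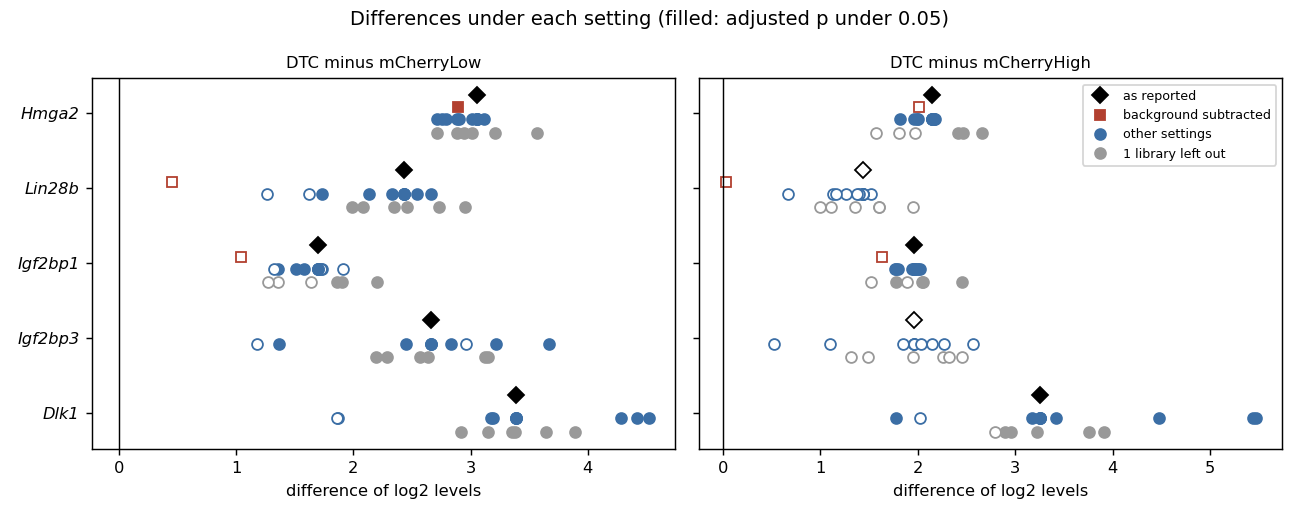
Differences of 5 genes between groups as reported (black diamond), with the chemosensory level subtracted (red square), under the other settings (blue) and with 1 library left out (grey), filled where the adjusted p is under 0.05. Hmga2 against mCherryLow is filled at every point, and Lin28b moves to 0.45 with the subtraction; Igf2bp3 and Dlk1 have no red square because they no longer reached 1 CPM in 3 libraries.

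Other genes of the pathway were read from lists chosen by function. Of 49 let-7 targets outside the members, 12 were higher and 1 lower in DTC relative to mCherryLow, with a median of 0.09, beside 34.2% higher and a median of 0.59 over all genes. Onecut2, a hepato-pancreatic transcription factor, was at 296, 236 and 360 CPM in DTC, 101, 32.0 and 78.8 CPM in mCherryHigh and 24.9, 35.7 and 20.2 CPM in mCherryLow. It rose by 3.43 relative to mCherryLow (limma adjusted p = 3.86e-04) and by 2.19 relative to mCherryHigh (limma adjusted p = 0.00579). Nr6a1, an orphan nuclear receptor of germ cells and embryo, was at 86.0, 66.7 and 110 CPM in DTC, 20.2, 16.6 and 16.0 CPM in mCherryHigh and 5.36, 4.32 and 10.0 CPM in mCherryLow, and rose by 3.59 relative to mCherryLow (limma adjusted p = 4.69e-04). Fign, an enzyme that severs microtubules, and Gatm, which makes the precursor of creatine, averaged 72.6 and 51.8 CPM in DTC against 3.93 and 3.48 CPM in mCherryLow, and rose by 3.79 and 3.53 (limma adjusted p = 5.24e-04 and 5.42e-04). These 4 genes were still called higher with the chemosensory level subtracted and without DTC 3, with values of 3.27 to 3.45 and 3.29 to 3.47. The list's count with the subtraction was 5 higher and 4 lower of 46, beside 13.6% of all genes higher and 2203 of 13907 lower.

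Relative to mCherryHigh, 8 of the 49 let-7 targets were higher and 1 lower, with a median of 0.00. Over all genes 23.0% were higher, with a median of 0.55. Acvr1c, a receptor for activin and Nodal ligands, led with 73.3 against 3.74 CPM (3.85, limma adjusted p = 0.00287). In mCherryHigh relative to mCherryLow 0 of 48 passed. The smallest p was that of Rrm2, a ribonucleotide reductase subunit, at 153 against 370 CPM (-1.41, limma adjusted p = 0.456), followed by Myc, the growth regulator, at 225 against 331 CPM (-0.55, limma adjusted p = 0.488).

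Genes were also sorted by the letters of their UTR. Of 196 genes with 2 or more seed matches outside the members, 69 (35.2%) were higher and 11 lower in DTC relative to mCherryLow, with a median of 0.78. Of 14108 genes with no match, 28.3% were higher, with a median of 0.27, beside 34.2% and 0.59 over all 18701 genes tested. The first set has longer UTRs, with a median of 3605.5 against 906 bases, and what length contributes was not tested. With the chemosensory level subtracted, 20 of 161 genes with 2 or more matches were higher and 28 lower. Of all 13907 genes 13.6% were higher and 2203 were lower.

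Of 22 genes that process or turn over let-7, 6 were higher and 3 lower in DTC relative to mCherryLow (median 0.69), and 6 higher and 1 lower relative to mCherryHigh (median 0.23). Over all genes 34.2% (median 0.59) and 23.0% (median 0.55) were higher in these comparisons. Hnrnpa1, an RNA-binding protein with processed copies in the genome that could share its reads, averaged 133 CPM in DTC, 9.61 CPM in mCherryHigh and 7.12 CPM in mCherryLow, and rose by 3.90 relative to mCherryLow (limma adjusted p = 6.66e-04). Tarbp2, a Dicer partner, rose by 2.16 (70.8 against 16.3 CPM, limma adjusted p = 0.00541) and kept its call with the subtraction. Eif2c1 and Eif2c4, Argonaute proteins that carry microRNAs, rose by 2.17 and 2.55 (limma adjusted p = 0.00304 and 0.00339). With the subtraction Eif2c1 differed by 1.38 and did not pass (limma adjusted p = 0.115), and Eif2c4 was no longer tested. Trim25, an E3 ligase that has been tied to let-7 decay through Lin28a, fell by 1.97 in DTC relative to mCherryHigh (78.6 against 324 CPM, limma adjusted p = 0.0119).

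Around the ligand Igf2, 4 of 13 genes of the IGF axis were higher and 0 lower in DTC relative to mCherryLow (median 1.11). Over all genes 34.2% were higher (median 0.59). Igf1, the sister ligand, which macrophages also make, was at 110, 73.1 and 140 CPM in DTC, 9.32, 5.41 and 12.0 CPM in mCherryHigh and 0.975, 7.79 and 3.79 CPM in mCherryLow. It rose by 4.59 relative to mCherryLow and by 3.47 relative to mCherryHigh (limma adjusted p = 4.30e-04 and 0.00165), alongside the macrophage marker sums above. The part of such cells in Igf1 was not tested. Irs4, an insulin receptor substrate, rose by 2.66 and Igfbp5, a binding protein, by 2.81 (limma adjusted p = 0.00157 and 0.00257), and neither was tested after the subtraction. Igfbp7, a secreted binding protein, fell by 3.20 in DTC relative to mCherryHigh, at 51.6 against 332 CPM (limma adjusted p = 0.00876). Its level was 50.2, 96.9 and 7.58 CPM in DTC 1, 2 and 3, and without DTC 3 the difference was -2.19 (limma adjusted p = 0.0187). With the subtraction it was -3.88 and did not pass (limma adjusted p = 0.0603).

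Of the imprinted genes outside the members, 35 were tested between DTC and mCherryLow, of which 17 were higher and 1 lower (median 1.53). Over all genes 34.2% were higher (median 0.59). Beside Meg3, Grb10, an adaptor that restrains insulin signalling, rose by 4.16 (24.3 against 0.194 CPM), Zdbf2 by 4.64 (65.8 against 2.04 CPM) and Ppp1r9a, an actin-binding protein, by 3.83 (66.6 against 3.31 CPM), with limma adjusted p of 7.66e-04, 7.95e-04 and 5.92e-04. With the subtraction Grb10 no longer reached the level needed for a test. Zdbf2 then differed by 2.97 (limma adjusted p = 0.0864) and Ppp1r9a by 2.92 (limma adjusted p = 0.116), neither of which passed. The list stood at 2 higher and 6 lower of 24, beside 13.6% of all genes higher and 2203 of 13907 lower. Relative to mCherryHigh the list gave 11 higher and 3 lower of 40, beside 23.0% of all genes higher and 7.19% lower. Cobl, an actin nucleator, rose by 5.15 (52.6 against 0.443 CPM, limma adjusted p = 0.00143) and kept its call with the subtraction, and the tetraspanin Cd81 fell by 2.17 (142 against 592 CPM, limma adjusted p = 0.00392).

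Among 19 other oncofetal and progenitor genes, 7 were higher and 0 lower in DTC relative to mCherryLow (median 0.77), beside 34.2% of all genes higher (median 0.59). Sall4, a stem cell factor, was at 19.0, 14.1 and 32.5 CPM in DTC, 0, 0 and 1.02 CPM in mCherryHigh and 0.975, 0 and 0 CPM in mCherryLow, and rose by 4.11 (limma adjusted p = 5.65e-04). Prtg, a neural tube receptor of the embryo, rose by 4.06 (51.5 against 2.06 CPM, limma adjusted p = 5.42e-04). With the subtraction Sall4 was no longer tested and Prtg differed by 2.52 (limma adjusted p = 0.177), which did not pass. The list then stood at 0 higher and 3 lower of 12, beside 13.6% of all genes higher and 2203 of 13907 lower. Afp, the fetal serum protein, had group means of 11.7 CPM in mCherryHigh and 21.2 CPM in mCherryLow (-0.78, limma adjusted p = 0.669). Of 6 mesenchymal transition factors linked to Hmga2, 2 were higher and 0 lower in DTC relative to mCherryLow (median 0.81), beside the same 34.2% of all genes higher. Prrx1, a homeobox factor of mesenchyme, was at 109, 52.6 and 92.0 CPM in DTC, 6.21, 2.55 and 7.67 CPM in mCherryHigh and 1.95, 8.26 and 4.97 CPM in mCherryLow. It rose by 3.90 relative to mCherryLow and 3.76 relative to mCherryHigh (limma adjusted p = 5.45e-04 and 0.00188), and both calls held with the subtraction. Tcf4 rose by 1.13 relative to mCherryLow (103 against 45.5 CPM, limma adjusted p = 0.0421), a call lost without DTC 3 (0.85, limma adjusted p = 0.114). Of the 6 factors 5 had a positive difference from mCherryLow. Snai2 went the other way, at 5.18 against 12.3 CPM (-1.57, interval -3.12 to -0.01, limma adjusted p = 0.0953), and was not called. In each of these lists 0 genes passed between mCherryHigh and mCherryLow.

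Without DTC 3, the library low in ductal markers, the counts higher and lower in DTC relative to mCherryLow were 9 and 1 for the let-7 targets, 7 and 0 for let-7 processing, 4 and 1 for the IGF axis, 12 and 1 for the imprinted genes, 5 and 0 for the other oncofetal genes and 1 and 0 for the mesenchymal factors. Relative to mCherryHigh, let-7 processing moved most, to 2 higher and 1 lower, while the let-7 targets stood at 7 and 1. Among the members, 4 were called higher in the same setting relative to mCherryLow (Hmga2, Lin28b, Igf2bp3 and Dlk1), beside 30.9% of 18701 genes called higher, and 1 relative to mCherryHigh (Hmga2), beside 14.8% of 19700 genes.

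The genes whose pattern over the 9 libraries was most like that of Lin28b were Ace, Krt79 and Ncf4, with root mean square differences of 0.25, 0.30 and 0.31 log2 units after each gene's mean was removed, among 12116 genes ranked. For Hmga2 they were Nlrp1b, Accn1 and Amd1, at 0.40, 0.44 and 0.45. Distances between members are given as description only. The closest of 12116 genes will nearly always lie closer than the closest of a few named genes. Igf2bp3 was the nearest member to Lin28b at 0.83 and to Hmga2 at 1.03, and Lin28b and Hmga2 lay 1.20 apart.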

How the data were processed

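RNAqueous-Micro extraction, SMART-seq v4 amplification and Nextera XT library preparation are recorded per the labels' protocols. The build was mm9, per the submitters' processing notes. Aligner and counter: not given in the sources used here. Values were deposited as CPM, as the authors labelled them. All values (100%) were whole multiples of 1 read within 0.01 read, so whole reads were recovered. On these, edgeR 4.0.16 called 0, 7657 and 5242 genes and DESeq2 1.42.0 called 132, 8087 and 6270 (mCherryHigh minus mCherryLow, DTC minus mCherryLow, DTC minus mCherryHigh).

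The main test was limma 3.58.1 (R 4.3.3), two-sided, with its mean-variance trend, on log2(CPM + 1) of genes that reached 1 CPM in 3 or more of a comparison's 6 libraries, with Benjamini-Hochberg adjustment over all genes and a threshold of 0.05. Folds are on that scale and understate changes of low genes. In DTC minus mCherryLow, some genes passed the filter only through the DTC libraries, among them Igf2bp3, Dlk1, Meg3, Sall4, Grb10 and Irs4. Transcript lengths and UTRs came from GENCODE M21 (GRCm38), matched to 94% of gene IDs, so no coordinates were joined to the mm9 values. Named genes are all members, up to 4 genes of each of the 6 pathway lists with the smallest p, genes of the genotype, and the 3 nearest patterns to Lin28b and Hmga2 with a mean of at least 5 CPM. Of the 170 pathway entries 161 were found, and of the 65 marker entries 62. Members and lists were chosen with earlier results of these data known. Alternatives were other pseudocounts, filters and scalings, one fit of all 9 libraries, the label number or code series as a term, count tests, thinning to 643748 reads and leaving out each library, with the chemosensory subtraction added after the data were seen. A result is not reported here.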

Additional observations from a re-analysis of the deposited data

How the results depend on the processing

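Members called in DTC minus mCherryLow (5 as reported) numbered 1 with quantile normalization, 3 with edgeR, 3 after thinning and 1 with the chemosensory level subtracted, and 4 to 5 with a library left out. With edgeR 7 members were tested, beside 4559 of 18701 genes called higher. After thinning 8 were tested, beside 5311 of 19073 genes. With the subtraction 5 were tested, beside 1893 of 13907 genes. With a library left out 7 were tested, beside 5179 to 6286 of 18701 genes. In DTC minus mCherryHigh (3 as reported) the members called numbered 0 of 5 with the subtraction. With a library left out they numbered 1 to 3 of 8, the 1 without DTC 2 or without DTC 3. Genes called higher with a library left out were 2627 to 5244 of 19700. Genes called were 4300 with quantile normalization and 4096 with the subtraction in DTC minus mCherryLow (8064 as reported), and 3150, 3061 and, with a library left out, 3217 to 6751 in DTC minus mCherryHigh (5949 as reported, lowest without DTC 1; 3547, 3854 and 3916 without mCherryHigh 5, mCherryHigh 6 and DTC 3). DESeq2 called 132 genes in mCherryHigh minus mCherryLow (0 as reported). The subtraction tests fewer genes; beyond that the cause was not tested.

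Values that changed sign, none of them called, were those of Hmga1 in DTC minus mCherryLow (-0.25 with median-of-ratios scaling, -0.21 with the subtraction, -0.58 to 0.94 with a library left out), Igf2bp2 in the same comparison (-0.01, -0.02, -0.07 to 0.62, and -0.10 with edgeR) and Igf2bp2 in DTC minus mCherryHigh (-0.09, -0.24, -0.33 to 0.41, -0.23 with edgeR and -0.06 with DESeq2). With a library left out, Hmga1 ran from -0.15 to 1.36 and Igf2 from -0.66 to 0.35 in DTC minus mCherryHigh, and Igf2bp2 from -0.07 to 0.67 and Sirt6 from -0.05 to 0.75 in mCherryHigh minus mCherryLow.

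The replicate block, fitted on the shared label numbers of mCherryHigh and mCherryLow, left 0 members and 0 genes called. Deviations of same-numbered libraries from their group means correlated at -0.204, -0.023 and 0.270. With 3 libraries per group these values cannot decide whether the numbers pair the libraries. No paired analysis was possible for DTC because it shares only 1 number with the other groups. Igf2 had 0 to 14 reads per library, and outside DTC Dlk1 had 0 to 12 and Igf2bp3 0 to 34, which limits what can be seen of these genes.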
